A study of Mus musculus with 38 samples.

Results

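The MYC network factors are transcription factors that meet at the partner protein MAX. The 9 genes described here, Myc, Mycn, Max, Mxd1, Mxd3, Mxd4, Mxi1, Mnt and Mlx, were taken by gene symbol from a count table of 24028 genes. All 9 are among the 13650 genes that passed the filter on low counts. The counts come from 38 libraries of polyA RNA, each from CD4 T cells of a single mouse that had been enriched as naive cells from lymph nodes and spleen. The cells were lysed directly (called naive) or after 24 h on plates coated with antibodies to CD3 (0.5 µg/ml) and CD28 (0.2 µg/ml), with interleukin-2 at 50 U/ml, which mimics antigen and costimulation. The strains were wild-type, CD28-/- (called CD28ko-labelled), CD4cre.miR-17~92lox/lox (T1792del, in which Cre removes the miR-17~92 microRNA cluster), CD4cre.Rosa26loxSTOPloxCAG-miR-17~92Tg (T1792tg, in which Cre switches on extra copies of the cluster) and CD28-/- carrying that Cre and transgene (rescue). Each strain had 4 naive and 4 stimulated libraries, and rescue had 3 of each. The Cre is driven by Cd4 regulatory sequence and so acts in both CD4 and CD8 T cells, and no strain was labelled as carrying Cre alone. Ages of the mice are not given in the labels.

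MYC and its relative MYCN pair with MAX, bind the hexamer CACGTG, called the E-box, and raise transcription of genes for growth, protein synthesis and metabolism. The MXD proteins (MXD1, MXD3, MXD4 and MXI1) and MNT pair with MAX on the same sites and recruit SIN3 and histone deacetylases, so they oppose MYC. MLX is a MAX-like protein that pairs with the glucose sensors MLXIP and MLXIPL and with some MXD proteins and MNT. In resting T cells MYC is scarce, and antigen with costimulation raises it as the cell grows before its first division.

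Levels are counts per 1000000 (CPM, scaled library sizes). Changes are log2 fold changes ± SE from an edgeR quasi-likelihood fit of all libraries, and a gene was called at a Benjamini-Hochberg adjusted p under 0.05 over the 13650 genes. Library totals, in units of 1000000 counts, were 19.4 to 25 in naive and 22.3 to 28 in stimulated libraries. CD4 T cell markers summed to 8215 to 9770 CPM in naive and 3203 to 5384 CPM in stimulated libraries, and all 10 were above 1 CPM in every group. Cd28 counts stood at 737 CPM in naive CD28ko-labelled against 825 CPM in naive wild-type cells. The table does not show which part of Cd28 the reads cover, so they do not check that label. Mir17hg, the host transcript of the cluster, was at 51.6 CPM in naive wild-type, 96.6 in T1792tg, 97.3 in rescue and 54.4 in T1792del cells. It reached 172 CPM in stimulated T1792del cells, so counts of the host gene do not track the deletion label either. Every CD28ko-labelled and rescue library was female by Xist and Y-linked counts. So were 1 of 4 T1792tg, 2 of 4 T1792del and 3 of 4 wild-type libraries in each state, with the same sex in both states for each replicate number. In the naive state, CD28ko-labelled replicate 1 and rescue replicate 2 stood apart from their groups in earlier work on these counts, and values without both are given where they bear on a result. Gt(ROSA)26Sor, the gene at the transgene's locus, stood at 13.6 CPM in naive T1792del cells and under 1 CPM in every other strain. The labels give T1792del no change at that locus. Together with the Mir17hg counts this bears on the T1792del and transgenic labels, which these counts do not settle, and the strains are named as labelled throughout.

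The sites by which these factors and the microRNAs could meet the genes can be read in their sequences. Promoter windows of RefSeq, build GRCm38.p6, from 250 bases before to 50 after a start, were found for 8 of the 9 genes. Myc had no window. The E-box CACGTG, read on both strands, lay in the windows of Mxd4, Mnt, Mlx and Max and not in those of Mycn, Mxd1, Mxd3 or Mxi1. Of all 32851 promoter windows, 7.15% hold it. The 4 stretches of 60 bases are the ones around that site in these windows, with the E-box in capitals and its offset from the start.
Max, chr12:76962219-76962278, minus strand, site at -3: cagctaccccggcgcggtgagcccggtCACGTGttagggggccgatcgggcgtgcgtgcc
Mxd4, chr5:34187897-34187956, minus strand, site at -219: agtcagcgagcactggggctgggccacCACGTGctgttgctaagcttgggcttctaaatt
Mnt, chr11:74830774-74830833, plus strand, site at -123: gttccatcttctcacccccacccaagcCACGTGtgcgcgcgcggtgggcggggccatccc
Mlx, chr11:101087223-101087282, plus strand, site at -40: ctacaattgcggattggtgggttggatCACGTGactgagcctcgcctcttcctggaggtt

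The 4 E2F-type octamers (TTTGGCGC, TTTCCCGC, TTTCGCGC and TTTGCCGC, either strand) were looked for and found in the Mycn window alone among these genes, with 3 matches, against 2.26% of all windows. The FOXO-type heptamer GTAAACA lay in 1 of the Mxi1 windows, against 3.65% of all windows.

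The microRNAs of the cluster recognise messages by bases 2 to 8, the seed, shown here in capitals for the families with matches in opposing factors.
mmu-miR-17-5p: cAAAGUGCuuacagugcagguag
mmu-miR-20a-5p: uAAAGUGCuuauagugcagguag
mmu-miR-19a-3p: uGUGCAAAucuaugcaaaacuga
mmu-miR-19b-3p: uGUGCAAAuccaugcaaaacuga
Searching the longest 3' untranslated region that GENCODE gives each gene, complements of a seed of the cluster turned up in 4 of the 9 members, against 32.76% of 12497 tested genes with such a region. The 4 are Mycn, Mxd4, Mxi1 and Mnt. Their regions hold 913, 3105, 4074 and 2405 bases, against a median of 1137 over tested genes, and Mxd1 has no match in 3829 bases. A longer region has more room for a match, and the share over all genes does not allow for length. The matches in the opposing factors are printed with the 7 matching bases in capitals, for setting beside the values of those genes in T1792del and transgenic cells. In naive T1792tg cells, Mxd4 was called higher than wild-type (0.49 ± 0.12 log2, edgeR adjusted p = 0.00217). Mnt was lower there (-0.38 ± 0.11, edgeR adjusted p = 0.0145) and Mxi1 was not called. Against CD28ko-labelled cells, rescue cells held more Mxd4 when naive (0.78 ± 0.12) and less at 24 h (-0.80 ± 0.14). Naive T1792del and stimulated T1792tg cells gave no call for these genes. In stimulated T1792del cells, Mxi1 was called higher than wild-type (0.66 ± 0.14 log2, edgeR adjusted p = 0.00112), and Mxd4 and Mnt were not called. Without replicate 2 the Mxi1 difference was 0.38. Of the members with no match, Myc, Max, Mxd1 and Mlx were called lower and Mxd3 higher in stimulated T1792del cells. The part of the matches in these values was not tested.
Mxi1, miR-17/20a, chr19:53375070-53375098, plus strand: cttatgtgcatGCACTTTgggcatcattc
Mnt, miR-17/20a, chr11:74844627-74844655, plus strand: aacctcccaggGCACTTTattattattat
Mnt, miR-19, chr11:74844450-74844478, plus strand: aaggtgcgaagTTTGCACtgggggcttag
Mxd4, miR-19, chr5:34174542-34174570, minus strand: gctctctaccaTTTGCACagtatggccat
The Mxd4 and Mxi1 matches lie beyond the ends of their RefSeq genes on GRCm38.p6, which span chr5:34176580-34187710 and chr19:53310128-53373293. The deposited length of Mxd4 is 1179 bases and its longest GENCODE transcript is 3872 bases, so the counts of Mxd4 hold the shorter model.

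Myc (Entrez Gene 17869, chr15:61985341-61990361) had the highest level per kilobase of the 9 members after stimulation, at 200 CPM per kilobase in wild-type cells against 122 for Max. The naive wild-type libraries held 135, 164, 147 and 146 CPM, and the stimulated ones 489, 510, 490 and 497 CPM. Stimulation raised Myc in every strain, with no overlap between naive and stimulated libraries, by 1.75 ± 0.09 log2 in wild-type (edgeR adjusted p = 3.73e-19), 1.81 ± 0.09 in T1792del, 2.11 ± 0.09 in CD28ko-labelled, 2.40 ± 0.09 in T1792tg and 2.51 ± 0.11 in rescue cells. In the same wild-type comparison 85.2% of all tested genes were called, 41.3% higher and 43.9% lower at 24 h, so a call of this kind is common. The other 8 members show where the network as a whole moved.

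In the naive state, Myc was highest in wild-type cells. The libraries held 107, 134, 98.3 and 133 CPM in T1792del, 108, 103, 119 and 98.7 in T1792tg, 86.4, 83.2, 83.7 and 80.2 in CD28ko-labelled, and 70.2, 71.1 and 97.0 in rescue cells. None of these groups overlapped the wild-type libraries. The changes against wild-type were -0.32 ± 0.09 log2 in T1792del (edgeR adjusted p = 0.0256), -0.46 ± 0.09 in T1792tg (edgeR adjusted p = 0.000256), -0.83 ± 0.09 in CD28ko-labelled (edgeR adjusted p = 8.36e-08) and -0.90 ± 0.10 in rescue cells (edgeR adjusted p = 2.91e-08). Without the 2 libraries that stood apart, the last 2 changes were -0.84 and -0.82. Over all alternatives the rescue change ran from -1.065 to -0.814 and kept its call. The T1792del call ended when only the compared groups were fitted, when T1792del replicate 1 or 3 was left out, and when wild-type replicate 2 or 3 was left out. Rescue and CD28ko-labelled naive libraries overlapped, and their difference was not called (edgeR adjusted p = 0.688).

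Genes of handling and early activation also differed between the naive strains. Against wild-type, 14.8% of all tested genes were called in naive CD28ko-labelled, 26.1% in rescue, 5.19% in T1792del and 23.1% in T1792tg cells. Of 12 immediate-early and stress genes (among them Fos, Fosb, Jun, Egr1 and Nr4a1), 9 were called lower and 0 higher both in naive CD28ko-labelled and in naive rescue cells against wild-type. In T1792del cells 4 were lower and 1 higher, and in T1792tg cells, where Myc was lower too, 2 were lower and 2 higher with a median log2 difference of 0.24. Their summed level was 4791 to 5462 CPM in CD28ko-labelled and 4451 to 5688 in rescue cells. It was 6029 to 13350 in wild-type, 5994 to 6978 in T1792del and 7672 to 11170 in T1792tg cells. The wild-type value of 13350 CPM was replicate 4, a male library, and replicates 1, 2 and 3 held 7510, 6029 and 7026 CPM. None of the 12 was under 1 CPM in any naive group. Genes among the most like Myc over the 19 naive libraries were Nr4a1 (r = 0.906) and Disp1 (r = 0.895), on log2 CPM and as a description, since these libraries share strain and preparation. Regulatory T cell markers also moved, with 5 of 8 called lower and 1 higher in naive CD28ko-labelled cells, whose sum was 237 to 241 CPM against 341 to 374 in wild-type, 5 lower and 1 higher in rescue cells (268 to 310 CPM), and 3 of 8 higher in T1792tg cells (382 to 518 CPM). The 8 markers of NK and CD8 cells summed to 96.3 to 99.9 CPM in wild-type and lay above that in every other strain, at 136 to 155 CPM in rescue, 105.9 to 177 in T1792tg, 107 to 161 in T1792del and 105.9 to 142 in CD28ko-labelled cells. Of 10 myeloid markers, 5 were called higher in naive T1792del cells (248 to 361 against 166 to 224 CPM in wild-type). The part of these genes in the naive differences was not tested. In bulk RNA, fewer cells of a type and less RNA per cell cannot be told apart.

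At 24 h the order of Myc was T1792tg (565 ± 30.3 CPM, SD, n = 4), wild-type (496 ± 9.59, n = 4), rescue (454 ± 12.7, n = 3), T1792del (414 ± 36.1, n = 4) and CD28ko-labelled (361 ± 17, n = 4). The CD28ko-labelled libraries, at 337, 377, 368 and 362 CPM, all lay below the wild-type ones, by -0.46 ± 0.09 log2 (edgeR adjusted p = 4.36e-05). Transgenic cells had 537, 605, 546 and 571 CPM, above every wild-type library, but 0.19 ± 0.09 did not pass (edgeR adjusted p = 0.173), and it passed only when the 2 groups were fitted alone. Rescue cells had 441, 466 and 454 CPM. They exceeded CD28ko-labelled cells by 0.33 ± 0.09 (edgeR adjusted p = 0.0123) and were at -0.13 ± 0.10 from wild-type (edgeR adjusted p = 0.302). That gain over CD28ko-labelled cells lost its call without rescue replicate 2. The T1792del difference, -0.26 ± 0.09 (edgeR adjusted p = 0.036), lost its call without T1792del replicate 2 or 4 or without any 1 wild-type library.

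**Figure D1:**
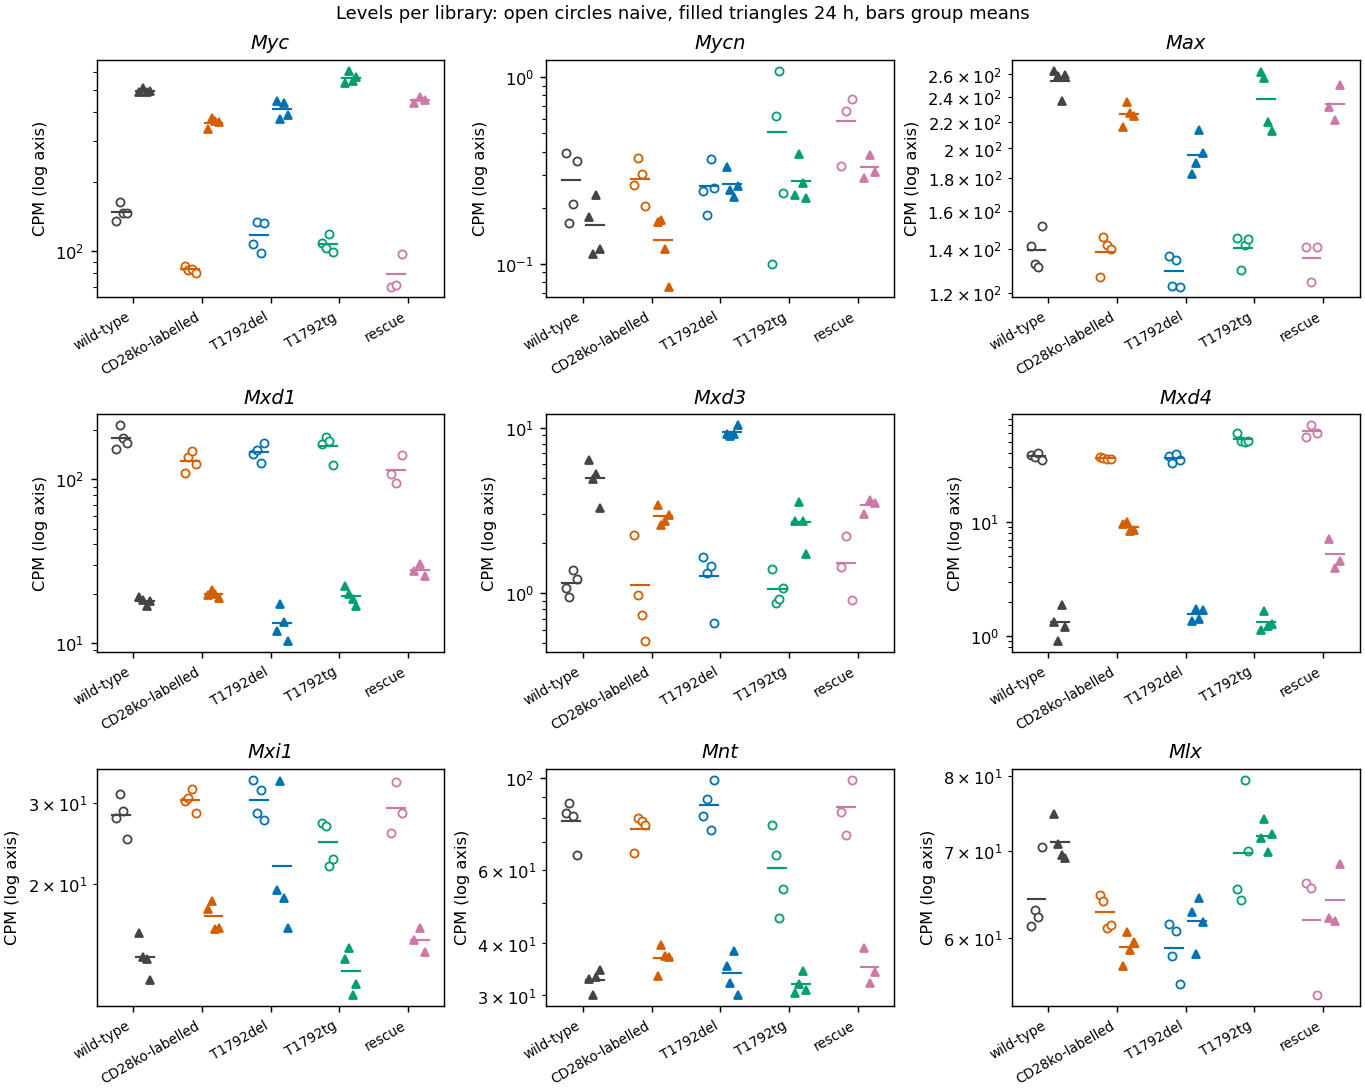
CPM (log axis) of the 9 members in each of the 38 libraries by strain, with open circles for naive and filled triangles for 24 h libraries and bars for group means. Myc, Max and Mxd3 lie higher at 24 h in every strain, Mxd1, Mxd4, Mxi1 and Mnt lie lower on average, and Mxd4 at 24 h is highest in CD28ko-labelled cells (9.04 CPM) and next in rescue cells (5.19 CPM).

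The response of Myc to stimulation was larger than in wild-type in 3 of the 4 other strains. The difference of responses against wild-type was 0.37 ± 0.12 log2 in CD28ko-labelled (edgeR adjusted p = 0.0173), 0.65 ± 0.12 in T1792tg (edgeR adjusted p = 0.00057) and 0.77 ± 0.14 in rescue cells (edgeR adjusted p = 5.86e-05). Each value is the 24 h difference minus the naive difference, so the lower naive levels enter it. The immediate-early list was lower in the naive state in CD28ko-labelled and rescue cells and went both ways in T1792tg cells, and its part was not tested. Rescue exceeded CD28ko-labelled cells by 0.40 ± 0.14 (edgeR adjusted p = 0.0467), a call lost in 17 of 23 alternatives, among them without any 1 library of the 2 strains other than naive rescue replicate 3.

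Mycn (Entrez Gene 18109, chr12:12936093-12941836), best known from developing nerve tissue, was near the floor of the assay. The wild-type naive libraries held 0.39, 0.17, 0.21 and 0.36 CPM, and the wild-type stimulated ones 0.18, 0.11, 0.23 and 0.12 CPM. These ranges overlap and the change of -0.75 ± 0.50 did not pass (edgeR adjusted p = 0.156). Only the T1792tg response was called (-0.88 ± 0.41, edgeR adjusted p = 0.0482). Its naive libraries ran from 0.10 to 1.08 CPM, and the call was lost in 10 of 15 alternatives, among them without naive T1792tg replicate 2 or 3 and without stimulated T1792tg replicate 1, 3 or 4. The per-kilobase level of Mycn was 0.06 CPM in stimulated wild-type cells, against 200 for Myc.

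Max (Entrez Gene 17187, chr12:76937269-76962323), the shared partner, rose in every strain. Naive wild-type libraries held 142, 133, 131 and 152 CPM, and stimulated ones 263, 259, 236 and 259, a change of 0.87 ± 0.07 log2 (edgeR adjusted p = 6.05e-14). The other strains rose by 0.60 to 0.79. In stimulated T1792del cells the libraries were at 183, 190, 213 and 196 CPM, all below wild-type, by -0.38 ± 0.07 (edgeR adjusted p = 0.000169). CD28ko-labelled cells were lower by -0.17 ± 0.07 (edgeR adjusted p = 0.0327), with the call lost without CD28ko-labelled replicate 1, 3 or 4 or wild-type replicate 1, 2 or 4. Rescue cells were at -0.12 ± 0.07 from wild-type (edgeR adjusted p = 0.217).

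Mxd4 (Entrez Gene 17122, chr5:34176580-34187710), a repressor of differentiated and resting cells, gave the widest range among the opposing factors. Naive wild-type libraries held 38.2, 37.2, 40.3 and 34.9 CPM, and stimulated wild-type ones 1.34, 0.91, 1.87 and 1.2 CPM. The log2 change was -4.82 ± 0.15 in wild-type (edgeR adjusted p = 3.15e-25), -4.54 ± 0.15 in T1792del and -5.31 ± 0.15 in T1792tg cells. It was -3.57 ± 0.15 in rescue and -1.99 ± 0.12 in CD28ko-labelled cells, all 5 being called.

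At 24 h the CD28ko-labelled libraries held 9.50, 9.92, 8.27 and 8.45 CPM and the rescue libraries 7.09, 3.97 and 4.51 CPM. Neither group overlapped the wild-type, T1792tg (1.13, 1.67, 1.23 and 1.28 CPM) or T1792del (1.37, 1.74, 1.42 and 1.68 CPM) libraries. Against wild-type the change was 2.76 ± 0.16 log2 in CD28ko-labelled (edgeR adjusted p = 5.12e-16) and 1.96 ± 0.17 in rescue cells (edgeR adjusted p = 9.64e-11). Rescue cells lay below CD28ko-labelled cells by -0.80 ± 0.14 (edgeR adjusted p = 0.00011), and every rescue library was below every CD28ko-labelled one. All 3 results kept their call in every alternative run. T1792tg, T1792del and wild-type libraries overlapped, and neither difference from wild-type was called.

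The naive levels of Mxd4 went another way. Transgenic cells (59.3, 50.9, 49.8 and 51.1 CPM) and rescue cells (55.5, 69.9 and 59.7 CPM) lay above all wild-type libraries, by 0.49 ± 0.12 (edgeR adjusted p = 0.00217) and 0.71 ± 0.12 (edgeR adjusted p = 4.68e-05). Rescue also exceeded naive CD28ko-labelled cells (36.6, 36.0, 35.4 and 35.5 CPM) by 0.78 ± 0.12 (edgeR adjusted p = 2.65e-05), and without the 2 libraries that stood apart these rescue values were 0.61 and 0.69. CD28ko-labelled and T1792del naive cells overlapped wild-type. The response of CD28ko-labelled cells differed from that of wild-type by 2.83 ± 0.20 (edgeR adjusted p = 3.91e-13), that of rescue by 1.25 ± 0.21 (edgeR adjusted p = 3.82e-05), and that of rescue from that of CD28ko-labelled by -1.58 ± 0.19 (edgeR adjusted p = 3.01e-06). The response of T1792tg differed from that of wild-type by -0.48 ± 0.23, which did not pass (edgeR adjusted p = 0.15).

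Genes most like Mxd4 at 24 h, over the 19 stimulated libraries, were Cyth3 (r = 0.986), Arap1 (r = 0.98) and Abca7 (r = 0.979). In the naive state they were Ier5l (r = 0.945), Bcl7c (r = 0.933) and Il2rb (r = 0.931). The lists do not share a gene. These are correlations of log2 CPM over libraries of 5 strains and are given with no test.

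Mxd1 (Entrez Gene 17119, chr6:86647044-86669234), a repressor induced as cells leave the cycle, had the highest level per kilobase of the MXD genes in naive wild-type cells, at 38.4 CPM per kilobase beside 31.9 for Mxd4. Naive wild-type libraries held 155, 215, 180 and 167 CPM and stimulated ones 19, 18.3, 16.8 and 17.9, a log2 change of -3.32 ± 0.14 (edgeR adjusted p = 1.46e-21). All 5 strains fell without overlap. The change closest to 0 was -2.05 ± 0.16 in rescue cells. Naive CD28ko-labelled (110, 138, 149 and 124 CPM) and rescue cells (109, 94.9 and 141 CPM) began below wild-type, by -0.46 ± 0.13 (edgeR adjusted p = 0.0138) and -0.64 ± 0.14 (edgeR adjusted p = 0.000762). The first call was lost without naive wild-type replicate 2. Without the 2 libraries that stood apart the values were -0.39 and -0.52. Over the naive libraries Mxd1 followed Myc with r = 0.834, a description with no test.

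After stimulation Mxd1 was highest in rescue cells, at 27.7, 30.4 and 25.5 CPM, above all libraries of every other strain. It exceeded wild-type by 0.63 ± 0.15 (edgeR adjusted p = 0.00111) and CD28ko-labelled cells, at 18.7 to 21.1 CPM, by 0.49 ± 0.15 (edgeR adjusted p = 0.0164). The second call was lost without rescue replicate 2. T1792del cells, at 10.3 to 17.3 CPM, were lower than wild-type by -0.45 ± 0.14 (edgeR adjusted p = 0.0287), a call lost in 6 of 16 alternatives, which were the fit of only these groups and those without T1792del replicate 1 or 4 or wild-type replicate 1, 2 or 4. The rescue response exceeded that of wild-type by 1.27 ± 0.20 (edgeR adjusted p = 1.46e-05) and that of CD28ko-labelled by 0.68 ± 0.20 (edgeR adjusted p = 0.024). The latter call was lost without naive CD28ko-labelled replicate 3, naive rescue replicate 1 or 2 or stimulated rescue replicate 2, with adjusted p up to 0.0809. The CD28ko-labelled response exceeded that of wild-type by 0.60 ± 0.19 (edgeR adjusted p = 0.0106).

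Mxd3 (Entrez Gene 17121, chr13:55325170-55329900), the MXD member linked to DNA replication, went against the rest of its family. Wild-type libraries rose from 1.08, 0.95, 1.38 and 1.22 CPM to 6.36, 4.88, 5.23 and 3.29 CPM, a change of 2.09 ± 0.29 log2 (edgeR adjusted p = 4.75e-08). T1792del cells reached 9.12, 8.95, 9.22 and 10.4 CPM, above every library of the other strains, and exceeded wild-type by 0.93 ± 0.25 (edgeR adjusted p = 0.00983). That call was lost without wild-type replicate 4, at an adjusted p of 0.0516. CD28ko-labelled cells (2.59 to 3.43 CPM) were below wild-type by -0.75 ± 0.26 (edgeR adjusted p = 0.0167), lost without wild-type replicate 1. Transgenic cells (1.73 to 3.56 CPM) were below it by -0.87 ± 0.26 (edgeR adjusted p = 0.0247), lost with a term for sex, without T1792tg replicate 3 or 4 and without wild-type replicate 1 or 3. Reads of Mxd3 can be shared with Prelid1, which overlaps its 3' end by 103 bases, since no source here gives the strand of counting.

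Mxi1 (Entrez Gene 17859, chr19:53310128-53373293) fell in every strain, in wild-type from 27.8, 31.4, 28.9 and 25.1 CPM to 15.6, 13.8, 13.7 and 12.3 CPM. The change was -1.03 ± 0.14 log2 (edgeR adjusted p = 2.66e-08). Stimulated T1792del libraries held 19.4, 33.5, 18.6 and 16.0 CPM, above all wild-type libraries, by 0.66 ± 0.14 (edgeR adjusted p = 0.00112). Replicate 2 stood above the others, and without it the difference was 0.38 and still called, while the T1792del response went from -0.48 to -0.76. CD28ko-labelled cells were at 0.29 ± 0.14 from wild-type (edgeR adjusted p = 0.0801). Mxi1 shares an overlap of 16740 bases with the lncRNA model Gm30541. Mxd1 likewise overlaps the lncRNA model Gm38850 by 9111 bases, and Mlx overlaps Psmc3ip by 67 bases. Reads of these genes can be shared too, since the strand of counting is not given.

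Mnt (Entrez Gene 17428, chr11:74830806-74845725), the widely expressed antagonist, fell in every strain, with log2 changes from -1.34 to -0.92. Naive wild-type libraries held 82.1, 86.8, 80.7 and 65.1 CPM and stimulated ones 32.8, 30.01, 33.2 and 34.6. Stimulated libraries of the 5 strains lay within 30.01 to 39.6 CPM, and no strain differed from wild-type by a call. Naive T1792tg cells, at 77.2, 65.2, 46.0 and 54.0 CPM, were lower by -0.38 ± 0.11 (edgeR adjusted p = 0.0145), overlapping wild-type, and the call was lost in the fit of only these groups and without T1792tg replicate 3 or 4 or wild-type replicate 2.

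Mlx (Entrez Gene 21428, chr11:101086707-101092207) was the steadiest member. Wild-type libraries went from 61.2, 63.1, 62.2 and 70.5 CPM to 74.8, 70.9, 69.4 and 69.1, and the ranges overlapped. The change of 0.15 ± 0.06 was called (edgeR adjusted p = 0.0315) but was lost in 9 of 17 alternatives, among them without naive wild-type replicate 1, 2 or 3 or stimulated wild-type replicate 1. With replicate numbers as pairs it was 0.15 ± 0.07 (edgeR adjusted p = 0.0702). At 24 h CD28ko-labelled cells, at 57.0, 60.6, 58.6 and 59.5 CPM, were below every wild-type library, by -0.27 ± 0.06 (edgeR adjusted p = 0.000491). T1792del cells (58.3 to 64.4 CPM) were below it by -0.20 ± 0.06 (edgeR adjusted p = 0.024), a call lost without T1792del replicate 2 or wild-type replicate 1. Rescue cells were at -0.15 ± 0.07 (edgeR adjusted p = 0.0866). The response of CD28ko-labelled cells differed from that of wild-type by -0.24 ± 0.09 (edgeR adjusted p = 0.0298), a call lost in 7 of 25 alternatives. These were the fit with replicate numbers as pairs and those without replicate 1 of either state in either strain or naive wild-type replicate 2 or 3.

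**Figure D2:**
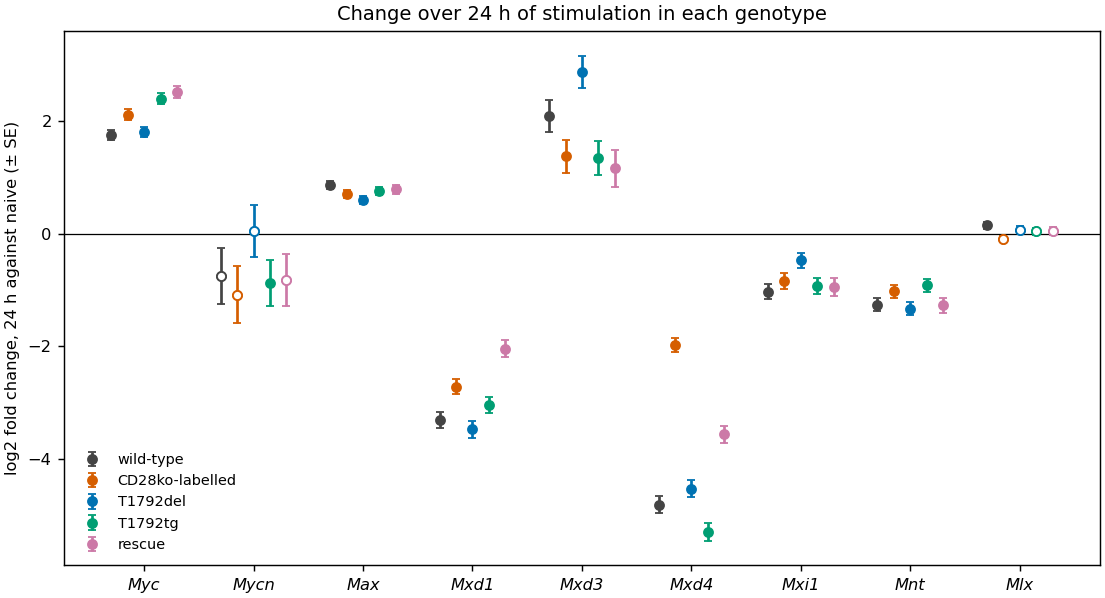
Change over 24 h (log2 fold change ± SE, y axis) of each member in 5 strains; filled symbols passed the test and open symbols did not. Mxd4 ranges from -5.31 in T1792tg to -1.99 in CD28ko-labelled cells, while Myc, Max and Mxd3 lie above 0 in every strain.

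By number, stimulation called 8 of 9 members in wild-type (4 higher and 4 lower), 7 in CD28ko-labelled (80.9% of all genes called), 8 in T1792tg (85.1%), 7 in T1792del (85.1%) and 7 in rescue cells (79.7%). These counts stand near the share of all genes. Between strains at 24 h, 5 members were called in CD28ko-labelled against wild-type (51.5% of all genes), 6 in T1792del (16.2%), 1 in T1792tg (12.5%), 2 in rescue (35.1%) and 3 in rescue against CD28ko-labelled (18.4%). Without wild-type replicate 1 the first 3 counts were 3, 3 and 0, without wild-type replicate 4 the T1792del count was 3, and without rescue replicate 2 the last was 1. In naive cells the counts were 2 (14.8%), 1 (5.19%), 3 (23.1%), 3 (26.1%) and 1 (16.8%) in the same order. Differences of responses were called for 4 members in CD28ko-labelled (43.3%), 0 in T1792del (6.1%), 1 in T1792tg (16%), 3 in rescue (31.7%) and 3 in rescue against CD28ko-labelled (12.8%). For the T1792del responses, edgeR gave 2 members an unadjusted p under 0.05, Max at -0.27 ± 0.10 and Mxi1 at 0.56 ± 0.19, and DESeq2 called 1. Comparisons with wild-type share its libraries.

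**Figure D3:**
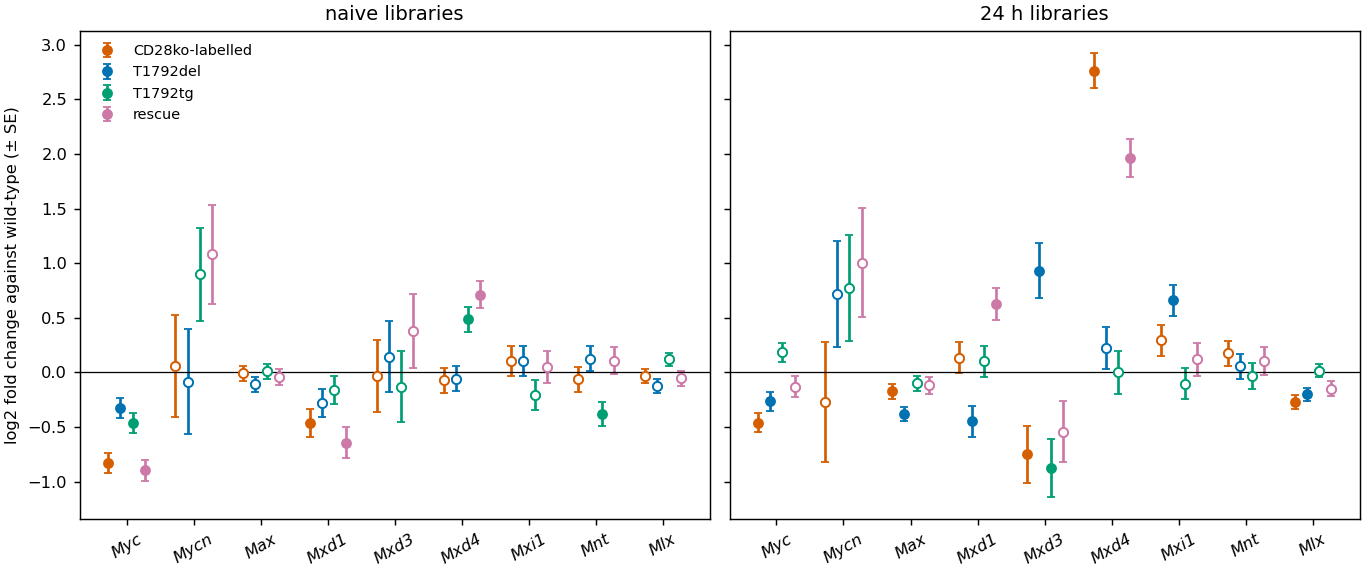
Differences from wild-type (log2 fold change ± SE, y axis) of the 9 members in naive cells (left) and at 24 h (right); filled symbols passed the test. Naive Myc lies below 0 in all 4 strains, and at 24 h Mxd4 lies at 2.76 in CD28ko-labelled and 1.96 in rescue cells and near 0 in the other strains.

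The balance of activators and antagonists can be read as the share of Myc and Mycn in the summed level per kilobase of Myc, Mycn, Mxd1, Mxd3, Mxd4, Mxi1 and Mnt. This share depends on the deposited gene lengths, and the model of Mxd4 is short. It rose from 39.1% ± 1.45 (SD, n = 4) in naive wild-type cells to 91.7% ± 0.67 at 24 h. Naive shares were 35.2% ± 3.02 in T1792del, 30.9% ± 2.44 in T1792tg, 29.5% ± 1.41 in CD28ko-labelled and 24.0% ± 2.49 in rescue cells (n = 3). At 24 h they were 93.3% ± 0.50 in T1792tg, 88.8% ± 1.05 in rescue, 88.1% ± 1.43 in T1792del and 85.3% ± 0.72 in CD28ko-labelled cells. Every CD28ko-labelled library (84.4% to 86.0%) lay below every wild-type one (90.9% to 92.3%). Wild-type (90.9% to 92.3%) and T1792tg (92.8% to 94.0%) did not overlap, and T1792del (86.1% to 89.3%) overlapped rescue (87.6% to 89.4%). On the CPM scale the 24 h shares were 87.5% in wild-type and 80.8% in CD28ko-labelled cells. No test was made of this share.

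**Figure D4:**
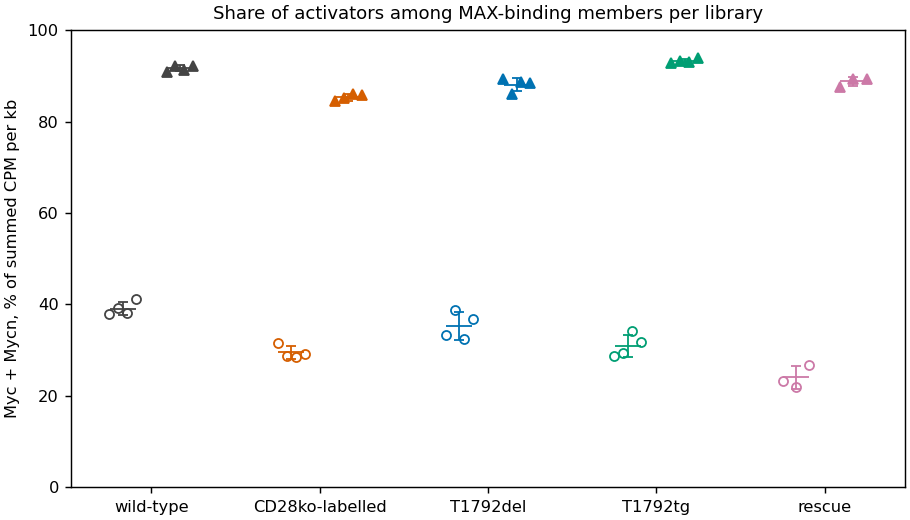
Share of Myc and Mycn (percent of summed CPM per kilobase of 7 members, y axis from 0) in each library, with group means and SD. Naive libraries lie between 21.9% and 41.1%, and stimulated ones between 84.4% and 94.0%.

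The other genes of the pathway were counted in lists chosen with earlier results of these data known. Beside the counts of these lists, stimulation called 85.2% of all tested genes in wild-type cells, 41.3% higher and 43.9% lower. Of the 4 further network genes tested, Mlxip, the partner of MLX, went from 209 to 80.7 CPM in wild-type on stimulation, and at 24 h it was 118 CPM in CD28ko-labelled (0.54 ± 0.13, edgeR adjusted p = 0.000835) and 117 CPM in rescue cells. Of 10 genes that govern MYC turnover, 5 rose and 5 fell in wild-type. Skp2, a ubiquitin ligase subunit, rose from 4.24 to 30.02 CPM, and at 24 h it was 13.4 CPM in CD28ko-labelled cells (-1.17 ± 0.12, edgeR adjusted p = 1.22e-09) and 26.6 CPM in rescue cells. Pim2, a kinase, was 504 CPM in stimulated wild-type, 315 in CD28ko-labelled (-0.68 ± 0.08, edgeR adjusted p = 6.67e-09) and 288 in T1792del cells (-0.81 ± 0.08, edgeR adjusted p = 8.55e-09).

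Of 10 coactivator genes, 6 rose and 3 fell in wild-type on stimulation. Ruvbl2, a helicase of chromatin complexes, went from 46.0 to 276 CPM. Of 7 corepressor genes, which the MXD proteins use, 3 rose and 4 fell. Hdac2 rose from 91.5 to 248 CPM and Ncor1 fell from 619 to 189 CPM. At 24 h Hdac2 was lower in CD28ko-labelled cells (167 CPM, -0.57 ± 0.07, edgeR adjusted p = 8.21e-09) and Ncor1 higher (267 CPM, 0.50 ± 0.09, edgeR adjusted p = 3.66e-05).

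Of 26 genes known to be raised by MYC, 25 were called higher and 0 lower in stimulated wild-type cells, with a median log2 change of 2.49 beside -0.06 over all tested genes. Srm, which makes spermidine, went from 34.8 to 559 CPM. At 24 h, 23 of the 26 were lower and 1 higher in CD28ko-labelled cells than in wild-type (51.5% of all genes called), with a median of -0.50 beside -0.03 over all genes. Srm was 288 CPM (-0.96 ± 0.08, edgeR adjusted p = 1.48e-12), Ldha 1474 against 2866 CPM (-0.96 ± 0.09, edgeR adjusted p = 5.58e-11) and Hk2 77.8 against 187 CPM (-1.27 ± 0.13, edgeR adjusted p = 5.55e-10), the latter 2 being enzymes of glycolysis. In rescue cells 17 were lower and 1 higher than in wild-type (35.1% of all genes called), and 9 were higher and 0 lower than in CD28ko-labelled cells (18.4% of all genes), among them Hk2 (131 CPM, 0.76 ± 0.14, edgeR adjusted p = 0.000125). T1792del called 1 higher and 3 lower (16.2% of all genes called), near the share of all genes, and T1792tg 1 higher and 0 lower (12.5%).

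Of 7 genes known to be repressed by MYC, 4 fell and 2 rose in stimulated wild-type cells, so the list did not move as one. Cdkn1b, the cell cycle inhibitor p27, fell from 469 to 19.5 CPM in wild-type and stood at 49.7 CPM in stimulated CD28ko-labelled (1.35 ± 0.15, edgeR adjusted p = 1.66e-09) and 32.0 CPM in rescue cells. Cdkn1a, the inhibitor p21, rose from 8.45 to 63.5 CPM in wild-type and was 16.2 CPM in CD28ko-labelled cells (-1.97 ± 0.20, edgeR adjusted p = 3.72e-10). Txnip, a target of MLX complexes that restrains glucose uptake, fell from 2565 to 82.1 CPM and was 173 CPM in CD28ko-labelled cells (1.08 ± 0.11, edgeR adjusted p = 2.93e-10) and 131 CPM in rescue cells. The other gene of that pair, Arrdc4, stood at 2.38 CPM in wild-type and 1.31 CPM in CD28ko-labelled cells (-0.86 ± 0.28, edgeR adjusted p = 0.0113).

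Marker lists differed between strains at 24 h as well. Against wild-type, 51.5% of all tested genes were called in CD28ko-labelled and 35.1% in rescue cells. On stimulation 85.2% were called in wild-type cells. The 10 myeloid markers summed to 35.8 to 47.9 CPM over all stimulated libraries, and Csf1r, Adgre1, Fcer1g, Tyrobp and Itgax were under 1 CPM in each group. The 9 B cell markers summed to 40.4 to 97.8 CPM in wild-type and 96.8 to 135 CPM in CD28ko-labelled cells, where 4 were called higher, and Cr2 was under 1 CPM except in CD28ko-labelled cells. Of 8 regulatory T cell markers, 4 rose and 3 fell on stimulation in wild-type, and their sum was 1062 to 1096 CPM in stimulated wild-type, 973 to 1017 in CD28ko-labelled (6 lower and 2 higher) and 1290 to 1354 in rescue cells (4 lower and 3 higher). The 8 NK and CD8 markers summed to 29.4 to 41.3 CPM in wild-type and 24.8 to 26.2 CPM in CD28ko-labelled cells, where 6 were lower and 1 higher with a median log2 difference of -1.16. CD4 T cell markers were higher for 8 of 10 genes in CD28ko-labelled cells (4709 to 5384 against 3422 to 4023 CPM), and 5 were higher and 1 lower in rescue cells. Of the 12 immediate-early and stress genes, 6 were higher and 2 lower in CD28ko-labelled cells (818 to 834 against 679 to 722 CPM). The part of these lists in the Myc, Mxd4 and other differences at 24 h was not tested.

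Among the members, the genes most like Myc over the 19 stimulated libraries were St6galnac4 (r = 0.975), Nf2 (r = 0.974) and Nol10 (r = 0.973), and the member most like it was Mlx (r = 0.917). Mxd4 ran the other way from Myc (r = -0.713). For Mxd3 they were Cenpl (r = 0.951), Trim37 (r = 0.943) and Rab27a (r = 0.939), and for Mxi1 Slc16a3 (r = 0.925), Gnpda2 (r = 0.906) and Aldoc (r = 0.906). These are descriptions over libraries of 5 strains, which share the strain differences given above.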

How the data were processed

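Per the labels, single-end reads of 76 nt came from stranded TruSeq libraries. The submitters' processing notes list FastQC 0.11.5, STAR 2.5.2a, R 3.5, edgeR 3.24.3 and mm10. No source used here gives the tool, annotation or strand of counting. The authors deposited whole-number counts per Entrez gene with no normalization, and a gene length per gene in the deposited table, used for CPM per kilobase. RefSeq symbols (GRCm38.p6) matched 23968 of 24028 identifiers, and the rest held 0.0749% of counts.

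Counts were scaled by TMM, filtered with filterByExpr and fitted with edgeR 4.0.16 (R 4.3.3) as 1 coefficient per group over 38 libraries. The 20 contrasts each had a two-sided quasi-likelihood F test, with Benjamini-Hochberg adjustment over all tested genes. The SE is the log2 fold change divided by the square root of F. Correlations used log2(CPM + 0.5). The fit was also run on simulated counts with the same spread for every gene, so that run does not measure its error rates on these data. The main fit held no replicate block, so its values are unpaired. Deviations of same-numbered naive and 24 h libraries correlated by 0.144 to 0.406 in wild-type and 0.21 to 0.369 in T1792del. In an alternative fit the numbers of every strain were taken as pairs. The blocked value is given where it changes the call of a 24 h change in wild-type or T1792del. Alternatives were DESeq2 size factors, DESeq2 1.42.0, no filter, a mean of 5 CPM, only the compared groups, 2 replicate blocks, a sex term, 2 libraries left out together, and each library left out. For the share of Myc and Mycn the alternative was CPM without length. The members and all lists were chosen with earlier results of these data known. Named genes were the members, up to 4 called list genes with the smallest p per list and comparison (2 where none was called), and the 3 genes most like a member, of which 1 is not reported here. The engineered loci were read to check labels.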

Additional observations from a re-analysis of the deposited data

Results flagged for a closer look

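In 2 of 72 groups of 4 libraries examined, 1 library lay far from the others of its group, where chance gives about 1 in 20. These were Max in stimulated wild-type replicate 3, at 236.34 CPM, and Mxd4 in naive T1792tg replicate 1, at 59.331 CPM.

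The 24 h response differed between strains in 11 of 45 tests of the members (edgeR interaction terms, adjusted over all genes). Calls of this kind were not limited to the members. Among all tested genes, rescue responses differed from CD28ko-labelled ones for 12.8%. Against wild-type responses, the called share of all genes ran from 6.1% (T1792del) through 16% (T1792tg) and 31.7% (rescue) to 43.3% (CD28ko-labelled). Against wild-type, CD28ko-labelled cells differed for Myc (0.366), Mxd1 (0.595), Mxd4 (2.831) and Mlx (-0.236), in log2. T1792tg cells differed for Myc (0.648). Rescue cells differed for Myc (0.766), Mxd1 (1.27) and Mxd4 (1.253). Rescue differed from CD28ko-labelled cells for Myc (0.4), Mxd1 (0.675) and Mxd4 (-1.578).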

How the results depend on the processing

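Of 75 called results for members, 1205 of 1291 alternative values kept direction and call, 86 lost the call and 0 changed direction. In all, 17 results lost their call at least once. Under settings other than single libraries left out, the count of called members changed in 13 of 20 comparisons, in 9 by no more than 1.5 times and in 4 by more. T1792tg against wild-type at 24 h went from 1 to 0 with a sex term, and to 2 with only the compared groups. It was also 0 with the filter at a mean of 5 CPM. That filter left Mxd3, the 1 called member (mean 2.98 CPM over all libraries), untested. The T1792del response went from 0 to 1 with the 5 CPM filter, DESeq2 or the replicate block over all groups. Naive T1792del went from 1 to 0, and CD28ko-labelled at 24 h from 5 to 8, with only the compared groups. Leaving out 1 library gave these ranges of counts. Stimulation gave 7 to 8 in wild-type, CD28ko-labelled, T1792tg and rescue, and 7 to 7 in T1792del. Naive comparisons gave 1 to 2 for CD28ko-labelled, 0 to 1 for T1792del, 2 to 4 for T1792tg, 3 to 4 for rescue and 1 to 2 for rescue against CD28ko-labelled. At 24 h the ranges were 3 to 5, 3 to 6, 0 to 1, 2 to 3 and 1 to 3 in that order, and for differences of responses 3 to 4, 0 to 1, 1 to 2, 3 to 4 and 1 to 3. The cause of the other changes was not tested.

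Replicate numbers are shared by naive and stimulated libraries of a strain. Deviations of same-numbered libraries had a median correlation of 0.181 (-0.023 to 0.406, 14 of 19 pairs over 0.1), against -0.068 for other numbers of a strain (5 of 54 over 0.1). Sex matched for all 19 numbers, and 30 of 38 libraries correlated best with their own number, a hint from the data. The labels do not tie the numbers to mice, so the main fit held no pairs. Numbers were read as pairs only in an alternative fit, which paired them in every strain. All pairs were over 0.1 only in wild-type and T1792del. They ran from -0.023 to 0.33 in T1792tg, from 0.014 to 0.152 in CD28ko-labelled and from 0.013 to 0.227 in rescue. With the replicate block within genotype, the wild-type Mlx response, the T1792tg Mycn response, the Mlx difference between CD28ko-labelled and wild-type responses and the Myc difference between rescue and CD28ko-labelled responses lost their calls, and no other member's call changed.

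Over all genes, fitting only the compared groups moved the number called in naive CD28ko-labelled against wild-type from 2015 to 956, in naive T1792tg from 3158 to 1913, in naive rescue from 3566 to 1846, in naive rescue against CD28ko-labelled from 2288 to 802, at 24 h in T1792tg from 1713 to 2631 and in rescue against CD28ko-labelled from 2510 to 3851. Without the 2 libraries that stood apart, naive rescue gave 2334. Mycn lies near the floor of these depths, so smaller differences in it were not detectable.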
